A study of Homo sapiens with 7 samples.

Results

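The subject is the interval of PPFIA2 on chromosome 12, chr12:81650000-82155000 on the hg19 build, and every deposited HOXB13-K13ac peak that shares at least 1 bp with it. This gave 275 peaks of the 148463 in 6 peak lists. The interval was chosen by its number of merged peaks of the replicate lists, which lie in a first run of sites at chr12:81771098-81824891 and a second at chr12:81909211-82000838. Counts of peaks and sites here are therefore descriptions and carry no test. The neighbouring interval of ACSS3, chr12:81470000-81650000, served as the local background and held 9 peaks over the same 6 lists.

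The lists come from ChIP-seq, the sequencing of immunoprecipitated chromatin, on C4-2B cells, an established human line that grew out of LNCaP prostate cancer cells and multiplies without androgen. The cells were kept in medium whose serum had been stripped of steroid hormones with charcoal, and received no further treatment. By the labels there are 3 libraries from an antibody to lysine 13-acetylated HOXB13 (HOXB13-K13ac), 2 from a control IgG and 2 of input chromatin. All 7 libraries are of this single cell line, nothing in the labels says that replicates are separate cultures, and peak lists cannot be checked against marker genes of the line.

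A list was tied to a library by the spelling of its name. Replicate 1 has a list whose control is not named, replicates 2 and 3 each have lists against input and against IgG, and another list, against input, matches no label and is called unassigned here. The names of replicates 1 and 3 differ by a single punctuation mark, so the numbers attached to these lists rest on it. The number that opens the titles of the HOXB13-K13ac libraries is 2898 for replicate 1 and 3047 for the other replicates. It is read here as a library series number, so replicate 1 and its series cannot be told apart. The IgG and input libraries with the number 3047 are those of replicate 2, and replicate 3 has none of its own. Replicates 2 and 3 may thus share controls, which the list names do not settle. The depth of each library is unknown. Counting intervals below are exact 95% intervals of counting error only, and neighbouring peaks of a library are not independent.

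PPFIA2 encodes liprin-α2, a scaffold protein of the presynaptic active zone that binds receptor tyrosine phosphatases of the LAR family through its C-terminal SAM domains. It is best known from neurons, where it takes part in the assembly of release sites, and its transcript has been reported to be lowered by androgen in LNCaP cells. HOXB13 is a homeodomain protein of prostate epithelium that binds DNA in enhancers together with the androgen receptor and forkhead factors. ACSS3 encodes a mitochondrial acyl-CoA synthetase that acts on short-chain fatty acids such as propionate.

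PPFIA2 is transcribed from the minus strand, so the high-coordinate end of the interval is its 5′ side. The RefSeq table used here lists 3 starts for the gene, and their promoter windows, 250 bases before to 50 after each start, are shown because binding of a factor along a gene is read against them. They are given on GRCh38.p14, were not converted to hg19, and are therefore not set against the positions of the peaks here. Capitals mark a match to a searched motif, and each sequence is written 5′ to 3′ on the strand of the gene.
PPFIA2 start 1, chr12:81759301-81759600, minus strand: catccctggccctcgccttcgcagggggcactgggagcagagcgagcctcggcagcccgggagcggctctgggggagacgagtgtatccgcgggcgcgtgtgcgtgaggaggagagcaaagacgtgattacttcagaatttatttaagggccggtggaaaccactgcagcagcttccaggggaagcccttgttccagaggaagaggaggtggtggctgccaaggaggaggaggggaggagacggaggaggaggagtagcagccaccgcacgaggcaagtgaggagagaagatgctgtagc
PPFIA2 start 2, chr12:81598322-81598621, minus strand: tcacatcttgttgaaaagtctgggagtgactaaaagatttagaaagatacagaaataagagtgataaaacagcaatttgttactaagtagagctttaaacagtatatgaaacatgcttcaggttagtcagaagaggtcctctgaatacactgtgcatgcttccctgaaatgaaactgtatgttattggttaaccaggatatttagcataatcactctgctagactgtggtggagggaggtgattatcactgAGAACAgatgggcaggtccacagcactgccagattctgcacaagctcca
PPFIA2 start 3, chr12:81369320-81369619, minus strand: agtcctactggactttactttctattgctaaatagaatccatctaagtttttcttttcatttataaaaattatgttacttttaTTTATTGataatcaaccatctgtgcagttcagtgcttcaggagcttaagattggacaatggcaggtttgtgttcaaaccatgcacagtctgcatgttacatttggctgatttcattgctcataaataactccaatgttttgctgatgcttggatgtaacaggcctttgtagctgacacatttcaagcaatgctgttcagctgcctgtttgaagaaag
The window of start 1 had a GC content of 62.7%, those of starts 2 and 3 had 40% and 36.0%, and the median of the 35116 RefSeq promoter windows was 58.7%. On both strands, the HOXB13 motifs CCAATAAA and CTCGTAAA, the forkhead motif TGTTTAC and the GATA motif AGATAA were in 0 of the 3 windows, against 0.934%, 0.137%, 3.42% and 10.3% of all windows. The steroid receptor hexamer AGAACA was in the window of start 2, beginning at its base 252, and in 14.8% of all windows. The shorter posterior HOX motif CAATAAA, which is contained in CCAATAAA and was added after the sequences were seen, was found as its reverse complement TTTATTG at base 84 of the window of start 3, and in 4.00% of all windows. These matches describe letters in these windows only.

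Peaks were many over PPFIA2 in replicates 1 and 2 and few in replicate 3. Replicate 1 had 70 peaks in the 505 kb of the PPFIA2 interval and 3 in the 180.0 kb of the ACSS3 interval. Replicate 2 against input had 96 over PPFIA2 and 5 over ACSS3, and the unassigned list had 78 and 1. Replicate 3 against input had 6 over PPFIA2 and 0 over ACSS3. Against IgG, replicate 2 had 25 over PPFIA2 and 0 over ACSS3, while the replicate 3 list, which holds 1 peak in all, had 0 in both.

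As densities, replicate 1 had 13.9 peaks per 100 kb over PPFIA2 (interval 10.8 to 17.5), against 1.67 over ACSS3 (0.344 to 4.87) and 1.38 over its whole list. Replicate 2 against input had 19.0 peaks per 100 kb over PPFIA2 (15.4 to 23.2), against 2.78 over ACSS3 (0.902 to 6.48) and 1.51 over its whole list. Replicate 3 had 1.19 peaks per 100 kb over PPFIA2 (0.436 to 2.59), against the up to 2.05 that a count of 0 allows over ACSS3 and 0.608 over its whole list, and its interval includes both. The density over PPFIA2 was thus 10.1, 12.6 and 1.95 times that of the whole list in replicates 1, 2 and 3, and 12.8 times in the unassigned list. It was 8.32 and 6.84 times that over ACSS3 in replicates 1 and 2. With each list limited to its 18232 strongest peaks by p, the length of the replicate 3 list, PPFIA2 held 22, 34 and 6 peaks of replicates 1, 2 and 3, and the ratios to the whole list were 7.17, 11.1 and 1.95.

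Peaks covered 13.2% of the PPFIA2 interval in replicate 1, 19.7% in replicate 2 against input, 0.220% in replicate 3 and 14.2% in the unassigned list. Over the ACSS3 interval the covered shares were 0.603%, 1.28%, 0 and 0.209% in the same order. Replicates 1 and 2 thus covered 66.9 kb and 99.7 kb of the PPFIA2 interval, and replicate 3 covered 1.11 kb.

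**Figure D1:**
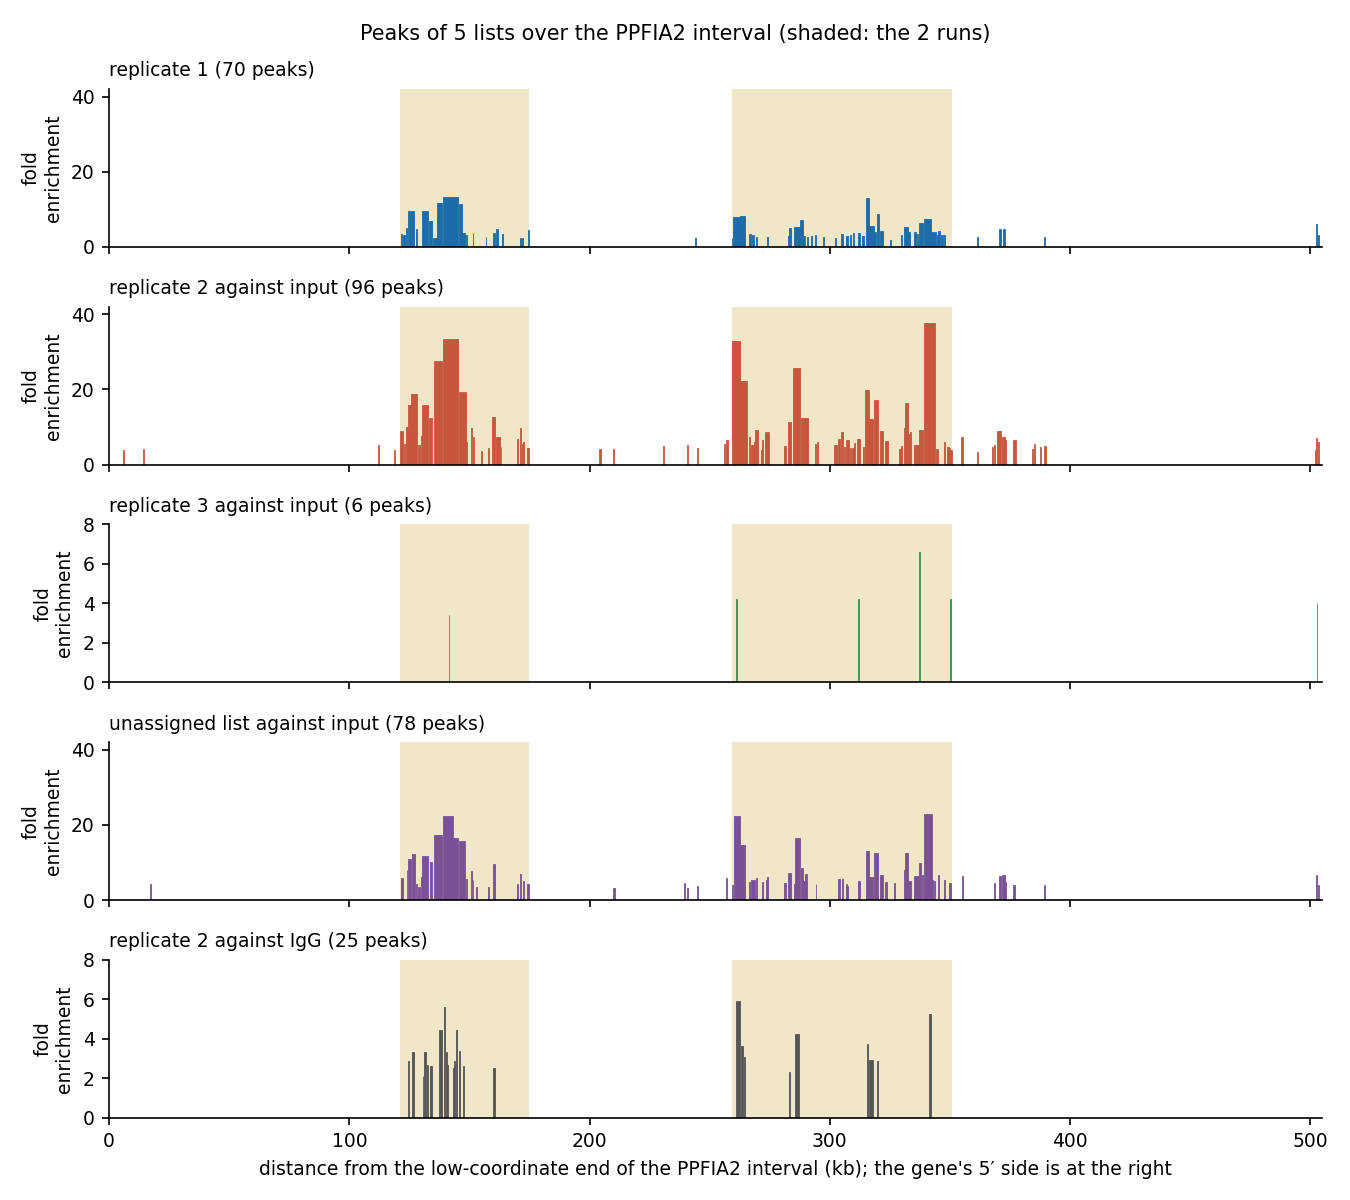
Peaks of 5 lists along the PPFIA2 interval, with distance from its low-coordinate end in kb on the x axis and the authors' fold enrichment on the y axis; each bar spans a peak, the bars of replicate 3 and of replicate 2 against IgG are on a smaller y scale, and shading marks the first and second run. The 70, 96 and 78 peaks of replicate 1, replicate 2 and the unassigned list stand mostly in the shaded runs, and 112 kb towards the 5′ side hold no peak.

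Within the gene the peaks were unevenly laid out. The first run, 53.8 kb long, held 21 peaks of replicate 1, 25 of replicate 2 against input, 1 of replicate 3 and 23 of the unassigned list. The second run, 91.6 kb long, held 42, 45, 4 and 40 peaks of the same lists. The 84.3 kb between the runs held 1, 7, 0 and 5, and the 121 kb on the 3′ side of the first run held 0, 4, 0 and 1. On the 5′ side of the second run, 39.2 kb held 4, 12, 0 and 7 peaks, and the next 112 kb, chr12:82040037-82151945, held 0 peaks of every list. Peaks returned in the last 3.06 kb, at the 5′ side, with 2, 3, 1 and 2.

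In peaks per 100 kb, the first run had 39.0 in replicate 1 (interval 24.2 to 59.7) and 46.5 in replicate 2 (30.1 to 68.6). The second run had 45.8 (33.0 to 62.0) and 49.1 (35.8 to 65.7), so the intervals of the runs overlap in both libraries. Between the runs the densities were 1.19 in replicate 1 (0.0300 to 6.61), from a single peak, and 8.30 in replicate 2 (3.34 to 17.1). The first interval includes the 1.38 of its whole list, and the second lies above the 1.51 of its own. Neighbouring summits lay a median of 2.13 kb apart in the first run and 1.66 kb in the second in replicate 1, against 10.6 kb in the whole list. In replicate 2 the medians were 1.70 kb and 1.58 kb, against 14.9 kb. Sites at most 10 kb apart formed a run, so close spacing within the runs follows from how they were formed.

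**Figure D2:**
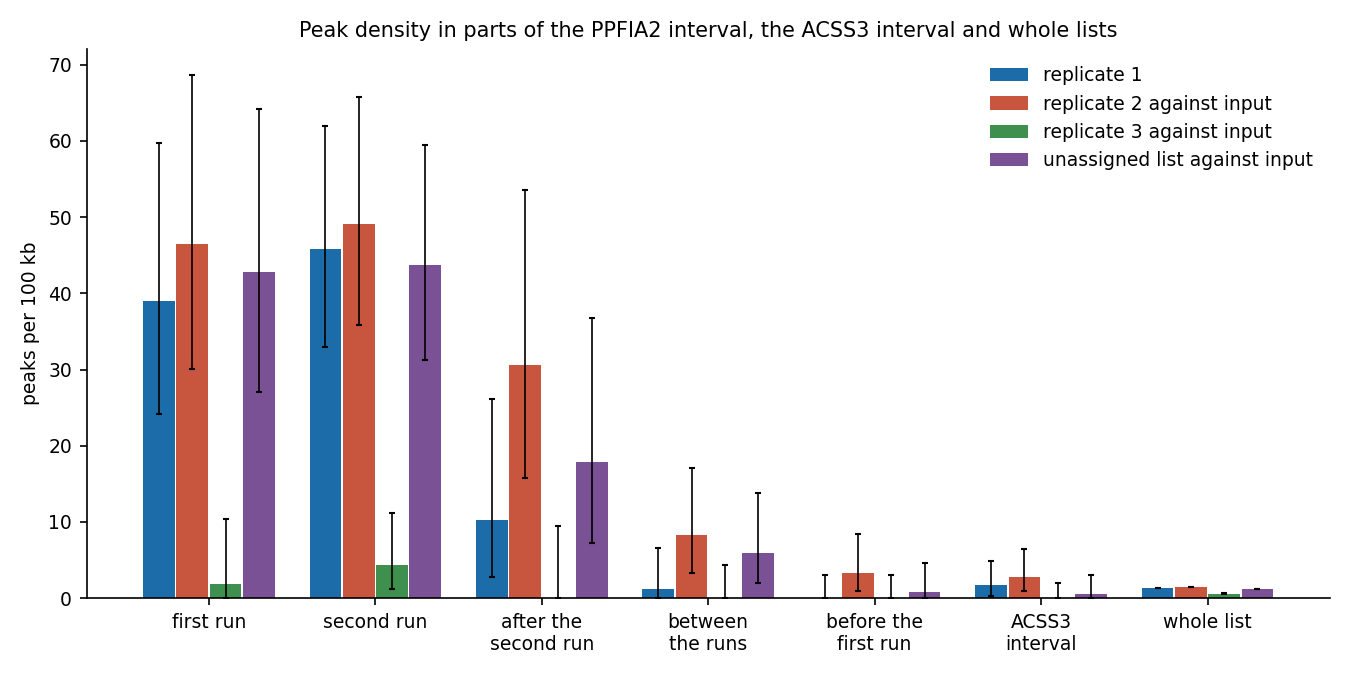
Peaks per 100 kb, on the y axis, in segments of the PPFIA2 interval, in the ACSS3 interval and in whole lists, on the x axis, for the 3 replicate lists and the unassigned list; lines are exact 95% Poisson intervals. The first and second run stand at 39.0 to 49.1 in replicates 1 and 2 and in the unassigned list, against 1.21 to 1.51 over these whole lists.

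The peaks over PPFIA2 were numerous and not high for their lists. In replicate 1 their fold enrichment over the control, which is the authors' value for each peak, ranged from 1.94 to 13.2 with a median of 3.62, against a median of 4.67 and a highest value of 40.2 in the whole list. In replicate 2 against input it ranged from 3.47 to 37.7 with a median of 6.15, against 6.50 and 89.5. The medians in replicate 3 were 4.20 over PPFIA2 and 4.40 in the whole list, and those in the unassigned list were 5.68 and 6.39. The median over PPFIA2 was thus below that of the whole list in each of these 4 lists, with broad overlap.

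Of the replicate 1 peaks over PPFIA2, 52 of 70 had a −log10 q of 5 or more, 74.3%, against 80.7% of the whole list. The count was 68 of 96 in replicate 2, 70.8%, against 67.2%, and 1 of 6 in replicate 3, 16.7%, against 6.28%. Of the PPFIA2 peaks, 4 of 70 in replicate 1 and 9 of 96 in replicate 2 were among the top 10% of their list by fold enrichment, shares of 5.71% and 9.38%.

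Wide peaks made up a larger share over PPFIA2 than in the whole lists. Peaks wider than 2 kb made up 9 of 70 in replicate 1, 12.9% (interval 6.05 to 23.0), against 2.86% of the whole list. In replicate 2 they were 12 of 96, 12.5% (6.63 to 20.8), against 5.62%. By width, 18.6%, 16.7% and 17.9% of the PPFIA2 peaks of replicate 1, replicate 2 and the unassigned list were in the top 10% of their list. The median width was nevertheless 618 bp in replicate 1 and 641 bp in replicate 2, against 555 bp and 635 bp in the whole lists. In replicate 3 the widest PPFIA2 peak was 264 bp.

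**Figure D3:**
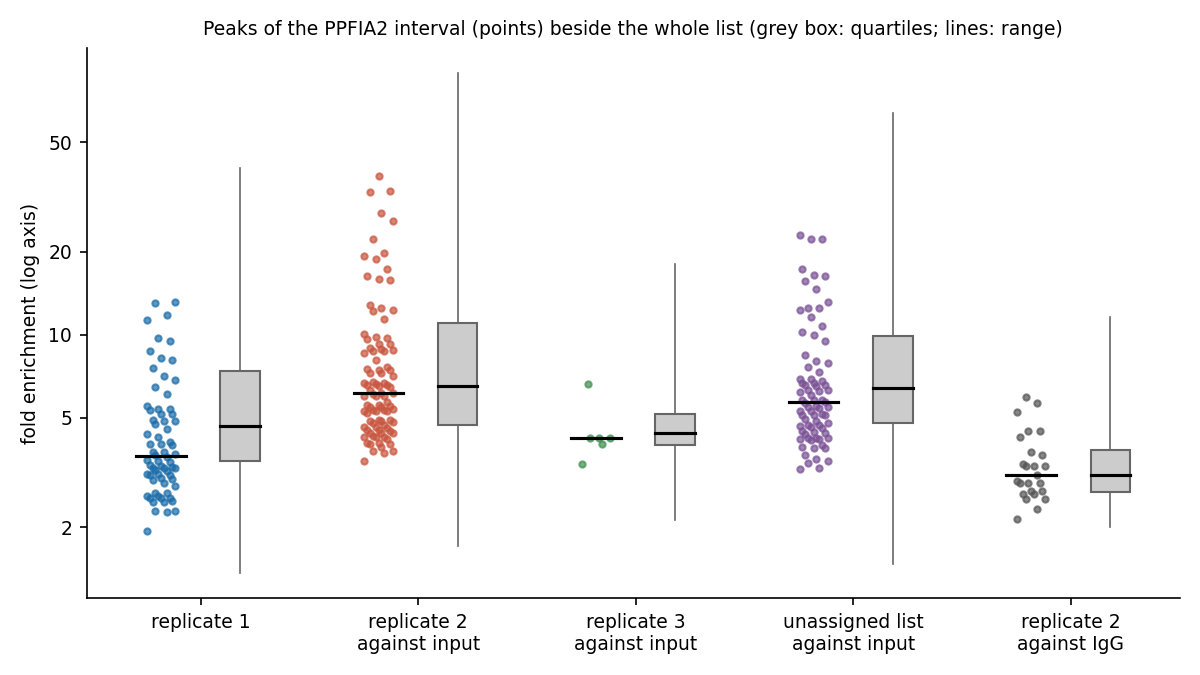
Fold enrichment of each peak, on a log y axis, for 5 lists on the x axis; points are peaks of the PPFIA2 interval with a bar at their median, and grey boxes give the quartiles and lines the range of the whole list. The medians of the PPFIA2 peaks, 3.62, 6.15, 4.20, 5.68 and 3.08 from left to right, lie within the grey boxes.

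Merging the 3 replicate lists gave 99 regions over PPFIA2, of which 52 were held by at least 2 libraries and are called replicated sites. This is 52.5% (interval 42.2 to 62.7), against 41.2% of all merged regions. Dense peaks share bases more readily, and PPFIA2 was chosen by its number of merged peaks, so this share does not measure agreement. The first run held 16 of them and the second 30, the stretch just 5′ of the second run held 4, the 5′ end held 2, and the 3′ side and the stretch between the runs held 0. Of the 52 sites, 51 were in replicates 1 and 2, and 5 were in all 3 libraries, 9.62% (3.20 to 21.0), against 17.0% of all replicated sites. The count rests on replicates 1 and 2, since leaving out replicate 1, 2 or 3 gave 6, 5 or 51 sites. Without replicate 1 or without replicate 2 the largest run was a single site. With lists of equal length there were 19 sites over PPFIA2, at most 7 of them in a run, and 29 sites when summits had to lie within 100 bp.

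The centre of the first run was nearly continuous. Its 24.0 kb from chr12:81774409 to 81798429 held 9 peaks in replicate 1 and 9 in replicate 2, which covered 79.3% and 90.1% of it. Where a list has several peaks in a site, the values given for the site are those of the peak with the highest fold enrichment. The broadest site, chr12:81789118-81795150, spanned 6033 bp. It had a fold enrichment of 13.2 in replicate 1, 33.4 in replicate 2, 3.39 in replicate 3 and 22.3 in the unassigned list. In replicate 2 against IgG it had 5.63, the highest of 6 peaks there. It was high in replicates 1 and 2 and low in replicate 3, where the peak was 145 bp wide with a −log10 q of 1.28. The replicate 3 summit lay 1928 bp from that of replicate 1 and 1855 bp from that of replicate 2. Over all sites of 3 libraries the median distances were 93.0 bp and 147 bp. In replicate 1 the peak of this site, of 5946 bp, was number 15 of 41303 by width.

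The site next to it, chr12:81785009-81788720, had 11.8 in replicate 1, 27.7 in replicate 2, 17.4 in the unassigned list and 4.45 against IgG. At chr12:81795550-81798429 the values were 11.3, 19.4, 15.7 and 3.39 in the same order. The −log10 q against IgG was 2.49 at the first of these sites and 1.01 at the second. Both sites were without a replicate 3 peak. Of the other strongest sites of this run, chr12:81774409-81778136 had 9.45 in replicate 1, 18.9 in replicate 2 and 12.3 in the unassigned list. The last, chr12:81780204-81782947, had 9.69, 15.9 and 11.6, and its summit lay at 81781740 in replicate 2, in replicate 2 against IgG and in the unassigned list, and at 81781758 in replicate 1.

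The second run had its strongest sites near its ends and in its middle. At its low-coordinate edge, chr12:81909211-81912532 had a fold enrichment of 8.08 in replicate 1, 33.0 in replicate 2, 4.20 in replicate 3, 22.3 in the unassigned list and 5.94 against IgG. Its summit was at 81912219, 81912213, 81911284, 81912178 and 81912213 in these lists, so that replicate 3 stood apart. Its −log10 q of 5.84 against IgG was the highest of the PPFIA2 interval in that list and number 116 of 7506. Beside it, chr12:81912772-81915488 had 8.26 in replicate 1, 22.2 in replicate 2, 14.7 in the unassigned list and 3.64 against IgG, with a −log10 q of 1.01 there.

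Near the other edge, chr12:81989090-81994294, of 5205 bp, had the highest value of the interval in replicate 2, 37.7, number 428 of 45216. It had 7.56 in replicate 1, 23.0 in the unassigned list, 5.24 against IgG and no replicate 3 peak. In the middle, chr12:81934917-81937497 had 5.33 in replicate 1, 25.8 in replicate 2, 16.4 in the unassigned list and 4.24 against IgG. At chr12:81964655-81966310 the values were 13.0, 19.8, 13.1 and 3.74 in the same order, with a −log10 q of 1.01 against IgG. The last was thus among the strongest PPFIA2 sites of replicate 1 and the site before it was not.

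Sites with a replicate 3 peak were not the strongest of the second run in the other libraries, apart from the one at its low-coordinate edge. At chr12:81987162-81988957 replicate 3 had its highest PPFIA2 peak, whose fold enrichment was 6.60 with −log10 q at 5.06, number 977 of 18232 by fold. Replicates 1 and 2 had 6.44 and 9.24 there, and the replicate 3 summit lay 1124 bp and 1154 bp from theirs. At chr12:81961332-81962613 replicates 1, 2 and 3 had 3.59, 6.70 and 4.20, with replicate 3 at 69.0 bp and 209 bp from the other summits. A further site, chr12:82000156-82000838, was in replicates 2 and 3, at 3.92 and 4.20, and not in replicate 1. All 6 replicate 3 peaks over PPFIA2 shared bases with a peak of replicate 1 or 2, 100% (interval 54.1 to 100), against 30.8% of its whole list. Replicate 2 peaks covered 59.9% of the first run and 56.5% of the second, against 1.27% over its whole list. Peaks share bases more readily where they are this dense, so the share does not measure agreement.

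At the 5′ end, the site chr12:82151946-82152877 was in all 3 libraries, with a fold enrichment of 6.10 in replicate 1, 7.09 in replicate 2, 4.00 in replicate 3 and 6.57 in the unassigned list. The replicate 3 summit lay 25.0 bp from that of replicate 1 and 154 bp from that of replicate 2. Its neighbour, chr12:82153103-82153675, had 3.13 in replicate 1, 5.97 in replicate 2 and 3.90 in the unassigned list. Neither had a peak against IgG. The replicated site nearest to a run, chr12:82011168-82011819 on the 5′ side of the second, had 2.67 in replicate 1 and 3.47 in replicate 2, both low, and no peak in the other lists.

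Most replicate 1 peaks over PPFIA2 lay on a replicate 2 peak. Of the replicate 1 peaks, 62 of 70 shared at least 1 bp with a replicate 2 peak, 88.6% (interval 78.7 to 94.9), against 76.9% of its whole list. Of the replicate 2 peaks, 56 of 96 shared bases with replicate 1, 58.3% (47.8 to 68.3), against 62.9%. Of the 99 merged regions, 39 were in replicate 2 alone, 39.4% (29.7 to 49.7), against 25.4% of all merged regions, and 8 were in replicate 1 alone, 8.08% (3.55 to 15.3), against 14.3%. The unassigned list held 20 of the 39, 51.3% (34.8 to 67.6), against 29.5% of all regions in replicate 2 alone. It held 42 of the 52 replicated sites, 80.8% (67.5 to 90.4), against 86.9% of all replicated sites. All these shares depend on peak density, for which PPFIA2 was chosen, and do not measure agreement. Replicate 1 summits lay a median of 122 bp from the nearest replicate 2 summit in the same site (quartiles 30.8 and 266), against 95.0 bp over all replicated sites.

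At the 51 sites shared by replicates 2 and 1, replicate 2 had the higher fold enrichment at 50, 98.0% (interval 89.6 to 100), against 88.3% of all 26760 shared sites. The medians of replicates 2 and 1 were 8.69 and 4.00 over PPFIA2, against 9.38 and 5.85 over all shared sites. The median of the ratio of replicate 2 to replicate 1 was 1.88 (quartiles 1.61 and 2.33), against 1.65 (1.25 and 2.16) over all of them. Since replicate 1 has no named control, the ratio describes these lists. Spearman's rho across the 51 sites was 0.767, against 0.706 across all shared sites. Sites of a library share its depth and control, and this is a description across sites.

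**Figure D4:**
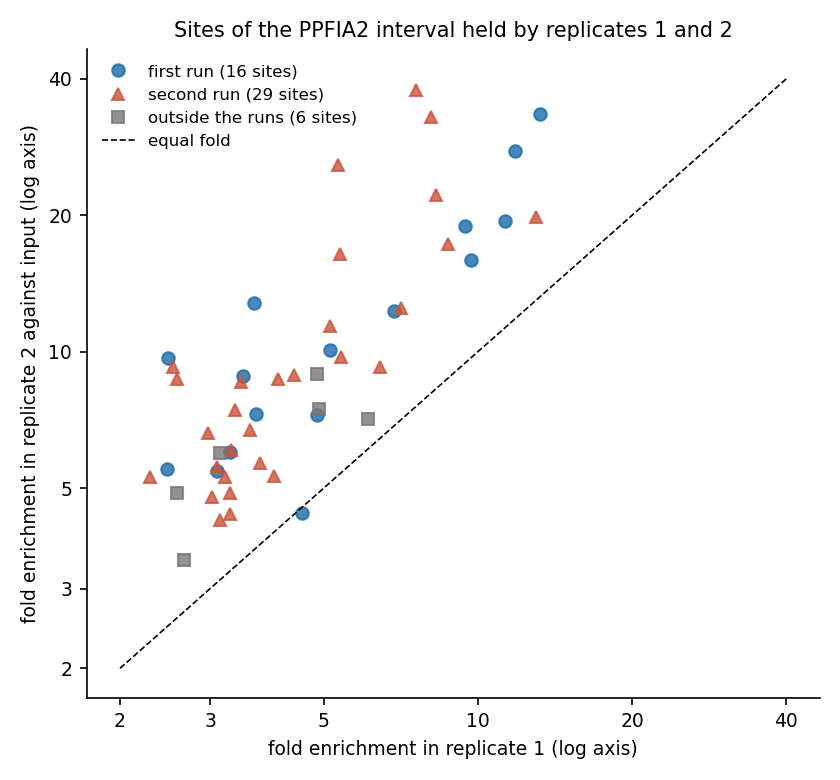
Fold enrichment in replicate 2 against input, y axis, and in replicate 1, x axis, both log, for the 51 PPFIA2 sites held by both, marked by run; the dashed line is equal fold. Points lie above the line at 50 of the 51 sites, 98.0%, against 88.3% of all shared sites, with the 16 sites of the first run and the 29 of the second overlapping.

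Against IgG, 16 of the 96 replicate 2 peaks over PPFIA2 were called again, 16.7% (interval 9.84 to 25.6), against 14.0% of the whole list. With IgG peaks limited to a q of at most 0.05 the PPFIA2 share was 5.21%. The whole-list share at that q was not computed, and the 14.0% includes IgG peaks at any q. The 25 IgG peaks all lay in the runs, 16 in the first and 9 in the second. The share of input peaks called again was 8 of 25 in the first run, 32.0% (14.9 to 53.5), 8 of 45 in the second, 17.8% (8.0 to 32.1), and 0 in every other segment. Among replicated sites, 14 of 52 had an IgG peak, 26.9% (15.6 to 41.0), against 23.2% of all. A q of at most 0.05 was found for 6 of the 25, 24.0% (9.36 to 45.1), against 21.5% of that list. These 6 fell in 5 sites described above, which begin at 81785009, 81789118, 81909211, 81934917 and 81989090.

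The peaks called again lay at the high end of enrichment over input. They ranged from 11.4 to 37.7 with a median of 19.1, and the other 80 ranged from 3.47 to 16.4 with a median of 5.53. In the whole list the medians were 18.5 and 5.79. Of PPFIA2 peaks from 10 to below 20, 10 of 13 were called again, 76.9%, against 36.8% of the whole list, and from 20 upward 6 of 6, 100%, against 77.7%. Below 5 it was 0 of 30, against 0.00706%, and from 5 to below 10 it was 0 of 47, against 1.04%. The classes were not matched for width, and the upper classes hold few PPFIA2 peaks. Peaks called again had a median width of 2431 bp over PPFIA2 and 1478 bp in the whole list.

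**Figure D5:**
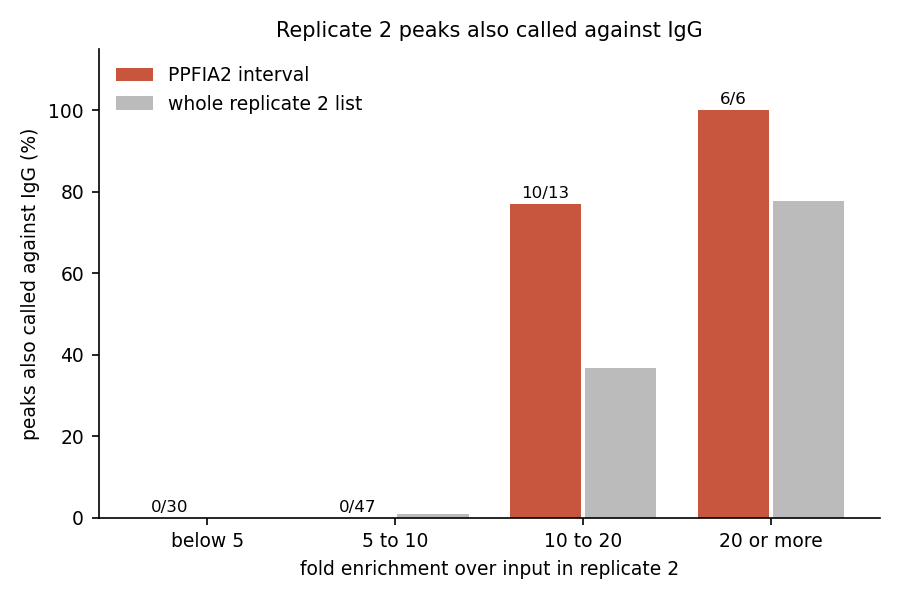
Share of replicate 2 peaks also called against IgG, in percent on the y axis, by class of fold enrichment over input on the x axis, for the PPFIA2 interval beside the whole list; numbers above the bars are PPFIA2 peaks called again and peaks in the class. The PPFIA2 shares are 0, 0, 76.9 and 100%, with 30, 47, 13 and 6 peaks, and IgG peaks at any q are counted.

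Set against 6133 other consecutive windows of 505 kb, 2 held as many replicate 1 peaks as the PPFIA2 interval, 0.0326%, and 0 held as many of replicate 2 or of the unassigned list, where the fullest windows had 66 and 76. In replicate 3, 1012 windows, 16.5%, held at least its 6. The windows lie on a fixed grid that can divide a group of peaks, while the PPFIA2 interval was placed around its own. It was also chosen by its number of merged replicate peaks, so its rank on replicate counts is a description. By distance on log2(peaks per 100 kb + 1) over 4 lists, the window most like it was chr19:18180037-18685037, with 64, 57, 10 and 58 peaks in replicates 1, 2 and 3 and the unassigned list, at a distance of 0.931. Next came chr18:55550111-56055111 with 57, 53, 3 and 48, and chr11:62115124-62620124 with 55, 53, 16 and 54. The last were chr16:67165134-67670134 with 53, 44, 9 and 42, and chr9:130290259-130795259 with 57, 45, 13 and 43. In each of the 5, replicate 2 had fewer peaks than replicate 1, where the PPFIA2 interval had more. The whole lists go the same way as the PPFIA2 interval, with 45216 peaks in replicate 2 against input and 41303 in replicate 1. More replicate 2 peaks is therefore not a trait that sets the interval apart. Genes in these windows were not looked up, as no annotation of hg19 was used here.

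On the low-coordinate side the replicate 2 peaks nearest to the edge of the interval were chr12:81655751-81655985 inside, at a fold enrichment of 3.79, and chr12:81649338-81649668 outside, at 3.32. On the high-coordinate side they were chr12:82153257-82153675 inside, at 5.97, and chr12:82179617-82180453 outside, at 6.08. In replicate 1 the first peak inside began at 81771608 with 3.48, and the last before it ended at 81640190 with 4.81.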

How the data were processed

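Only peak lists were used. The builds hg19 and GRCh37 and the tools MACS2, Bowtie2, BWA and CASAVA 1.4 are named, per the submitters' processing notes. The sources used here do not give what each tool did, nor any threshold, filter or pooling. The authors deposited for each peak a fold enrichment, a ratio to the control, and a −log10 p and −log10 q. Depth is unknown, so no precision follows from it.

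SciPy 1.17.1, pandas 2.3.3 and NumPy 2.4.6 were run under Python 3.11.15. Peaks sharing 1 bp were joined, and merged regions with at least 2 of the 3 libraries were replicated sites. Sites at most 10 kb apart formed a run. No test was made. The code was tested on simulated lists, where 456 of 456 sites and 20 of 20 clusters were recovered. Members, lists and alternatives were chosen with earlier results of these data known.

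Sites named are the 5 with the highest replicate 2 fold enrichment in each run, all PPFIA2 sites in 3 libraries, those with an IgG q of 0.05 or less, and the replicated sites outside nearest to the runs. The second site at the interval's 5′ end, the site in replicates 2 and 3 alone, and those beyond the interval were added after their values were seen. Promoter sequences are from RefSeq (GRCh38.p14), matched by symbol. Motifs at summits and peaks over other liprin genes were not analysed here, for want of hg19 sequence and annotation. Alternatives changed the peaks used, list length, overlap, stitching and libraries.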

Additional observations from a re-analysis of the deposited data

Results flagged for a closer look

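The unassigned list, which entered no definition of a site, had 78 peaks in the PPFIA2 interval and 1 in the ACSS3 interval. It is listed here because it was not among the lists that defined the sites. Of its 78 peaks, 73 lay in a region with a replicate 2 peak, against 32896 of 36205 in its whole list. Its peaks were distributed with 23 in the first run, 40 in the second and 7 just 5′ of the second. Its summits lay a median of 41.0 bp from the nearest replicate 2 summit over PPFIA2, against 39.0 bp over all regions. Which library gave this list is not known, and whether it shares reads with a replicate was not tested.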

How the results depend on the processing

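Peak counts over PPFIA2 with lists of equal length were 22 in replicate 1 and 34 in replicate 2, and with a −log10 q of at least 5 the count in replicate 3 was 1. The median fold enrichment was 4.30 in replicate 1 and 7.44 in replicate 2 at that q, and 6.96 and 11.8 with equal lists, which keep stronger peaks by construction. Replicated sites numbered 19 with equal lists and 29 with summits within 100 bp. Leaving out a replicate gave 5 to 51 sites. The largest run held 14 sites at the stricter q, 7 with equal lists, 11 with stitching within 5 kb, and 1 to 29 when a replicate was left out. The share of replicate 2 peaks over PPFIA2 called again against IgG was 5.21% when the IgG peaks were limited to a q of at most 0.05. It was 1.47% with a −log10 q of at least 5 in both lists. Whole-list shares at these limits were not computed. The share of sites held by the unassigned list was 80.4% to 100% when a replicate was left out, the highest from 5 or 6 sites. The other 21 alternative values stayed within 1.5 times for counts and within the spread or interval for other values. Some of these could not move. The equal list of replicate 3 is its own list, and the spread for its fold enrichment is the range of its 6 peaks. Unknown depth limits what the 6 peaks of replicate 3 can show. The summit motifs and the liprin gene list were not run, since no hg19 sequence or annotation was used here. No paired analysis was possible because no value comes from a test and the IgG and input libraries have no lists of their own.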

Other observations

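Beyond the interval, 350 kb on the low-coordinate side held 5, 10 and 1 peaks in replicates 1, 2 and 3, and 350 kb on the high-coordinate side held 9, 5 and 1. The strongest replicated site of these flanks, chr12:81329948-81331878, had a fold enrichment of 11.3 in replicate 1, 12.7 in replicate 2, 4.00 in replicate 3, 8.69 in the unassigned list and 3.11 in replicate 2 against IgG. The −log10 q against IgG was 0.414. Its summits lay at 81331147, 81331148, 81331158, 81331145 and 81331112 in these lists, so all 5 fell close together.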
